A study of Mus musculus with 6 samples.

Results

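Transforming growth factor beta (TGF-beta) signalling was followed at the RNA level through 7 genes: the ligand gene Tgfb1, the type I receptor genes Tgfbr1 and Acvrl1 (which encodes ALK1), the type II receptor gene Tgfbr2, the co-receptor genes Eng (endoglin) and Tgfbr3 (betaglycan), and the feedback gene Smad7. They were taken from the deposited table by gene symbol alone, and all 7 were among its 14005 genes and passed the filter on low values, which kept 13991 genes. A TGF-beta dimer is bound by TGFBR2, which recruits and phosphorylates a type I receptor. TGFBR1 then passes the signal to SMAD2 and SMAD3, whereas ALK1, a receptor of endothelial cells, passes it to SMAD1 and SMAD5. Endoglin and betaglycan present ligand to these receptors, and SMAD7 binds the activated receptors and blocks them. Endoglin and ALK1 are best known from blood vessels, and endoglin is also made by the early mesoderm from which blood and endothelium arise.

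The RNA came from FLK1+ cells sorted at day 3.5 from embryoid bodies (EBs), the aggregates in which differentiating embryonic stem (ES) cells pass through mesoderm. The 2 groups were WT cells, from the J1 ES cell line, and Scl-/- cells, from ES cells lacking Scl (Tal1), which encodes a basic helix-loop-helix factor needed for blood formation. Each group had 3 libraries, numbered 1 to 3, from separate differentiations. Each genotype came from 1 ES cell line, so that the effect of the lost gene and of the line cannot be told apart. The strain labels gave a cross of C57Bl/6 with Sv129 in 3 of the libraries. They carried other Sv numbers in WT replicate 3 and in Scl-/- replicates 2 and 3. Whether those numbers mark a real difference in strain is not stated in the sources used here.

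The libraries held 38623641 to 47621120 reads on the listed genes, and values are given as CPM, the reads on a gene scaled to the size of its library. Tal1 had 303, 182 and 306 CPM in the WT libraries (replicates 1 to 3 in order, here and throughout) and 9.35, 5.68 and 5.87 CPM in the Scl-/- libraries. The gene of the sort marker FLK1, Kdr, was high in all 6 libraries, at 832 to 868 CPM in WT and 724 to 810 CPM in Scl-/- cells. Endothelial markers were present in WT cells and lower in Scl-/- cells, with summed levels over 10 genes of 364 to 776 CPM and 144 to 243 CPM. A summed level over 8 haematopoietic markers was 117 to 192 CPM in WT and 22.4 to 36.6 CPM in Scl-/- cells, where Hbb-bh1, an embryonic globin gene, was at 0 in all 3 libraries.

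The groups were compared with limma on log2(CPM + 0.5) over all 13991 genes, with Benjamini-Hochberg adjusted p-values. To be called, a gene needed an adjusted p below 0.05 together with a log2 fold change (Scl-/- against WT) of more than 0.48 in either direction. With genotype as the only term, 2.36% of all tested genes were called, and 0 of the 7 genes. At an unadjusted p under 0.05 there were 2, Tgfb1 and Tgfbr3, beside 17.7% of all tested genes. Same-numbered libraries of both genotypes varied together, and with the replicate number as a block 12.6% of all tested genes were called. Of the 7 genes, 3 were then called: Tgfb1 was higher, beside 6.04% of tested genes called higher, and Acvrl1 and Smad7 were lower, beside 6.60% called lower. The log2 fold changes are the same in both fits, and the block acts on their errors alone. In bulk libraries such as these, fewer cells of a type and less RNA per cell cannot be told apart.

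The stretch of genome just upstream of the start site is shown for 3 of the genes, the ligand and the receptor or co-receptor genes with 1 window each, because SCL binds DNA as a partner of E proteins at E-boxes (CANNTG), often beside GATA sites, and SMAD proteins bind CAGAC. The windows are the 250 bases before the RefSeq start site on the gene's own strand, 5′ to 3′, in GRCm38.p6, with each match in capitals. The table of start sites matched 4 of the 7 genes in 5 windows, and Acvrl1, Tgfbr3 and Smad7 were not matched. The Eng window lies at chr2:32646345-32646594 on the plus strand, that of Tgfb1 at chr7:25686752-25687001 on the plus strand, and that of Tgfbr2 at chr9:116175364-116175613 on the minus strand.
Eng: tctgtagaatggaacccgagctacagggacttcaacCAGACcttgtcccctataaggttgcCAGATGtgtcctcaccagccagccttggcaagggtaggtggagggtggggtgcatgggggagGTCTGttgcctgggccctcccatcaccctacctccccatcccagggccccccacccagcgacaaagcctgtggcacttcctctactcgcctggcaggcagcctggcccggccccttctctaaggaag
Tgfb1: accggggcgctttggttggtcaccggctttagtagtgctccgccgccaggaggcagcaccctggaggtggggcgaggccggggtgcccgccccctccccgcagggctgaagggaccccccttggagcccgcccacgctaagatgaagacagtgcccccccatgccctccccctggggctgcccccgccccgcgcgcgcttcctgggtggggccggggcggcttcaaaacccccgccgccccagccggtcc
Tgfbr2: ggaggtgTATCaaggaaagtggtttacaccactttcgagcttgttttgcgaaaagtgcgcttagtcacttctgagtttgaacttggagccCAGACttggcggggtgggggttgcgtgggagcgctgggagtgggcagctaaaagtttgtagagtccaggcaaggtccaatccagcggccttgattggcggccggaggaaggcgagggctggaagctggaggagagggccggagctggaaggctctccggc
Both strands were searched, so that GTCTG in the Eng window and TATC in the Tgfbr2 window are matches on the opposite strand, and no match in these windows overlapped another. The Eng window held 1 E-box and 2 CAGAC matches, the Tgfb1 window held none of the 3 motifs, and the Tgfbr2 window held 1 GATA and 1 CAGAC match. Of 32851 such windows over all genes, 66.2% held CANNTG, 53.6% GATA and 42.2% CAGAC, so each of these short matches is common.

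Transcripts of the ligand TGF-beta 1 were higher in Scl-/- than in WT cells. Tgfb1 (ENSMUSG00000002603; mm9, chr7:26472021-26490096, plus strand) had 68.0, 102 and 82.0 CPM in the WT libraries and 133, 144 and 118 CPM in the Scl-/- libraries. Each Scl-/- library was above each WT library, as for 11.0% of all tested genes. The means were 84.0 ± 17.2 and 132 ± 13.0 CPM (SD, n = 3). The log2 fold change was 0.66 (SE 0.16, limma adjusted p = 0.0895), and with the replicate block the gene was called (SE 0.095, adjusted p = 0.00265). The call held with the block whichever pair was left out, at log2 fold changes of 0.51 to 0.74. Without the block it was reached only without WT replicate 2, the highest WT library (log2 fold change 0.81, adjusted p = 0.0363).

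**Figure D1:**
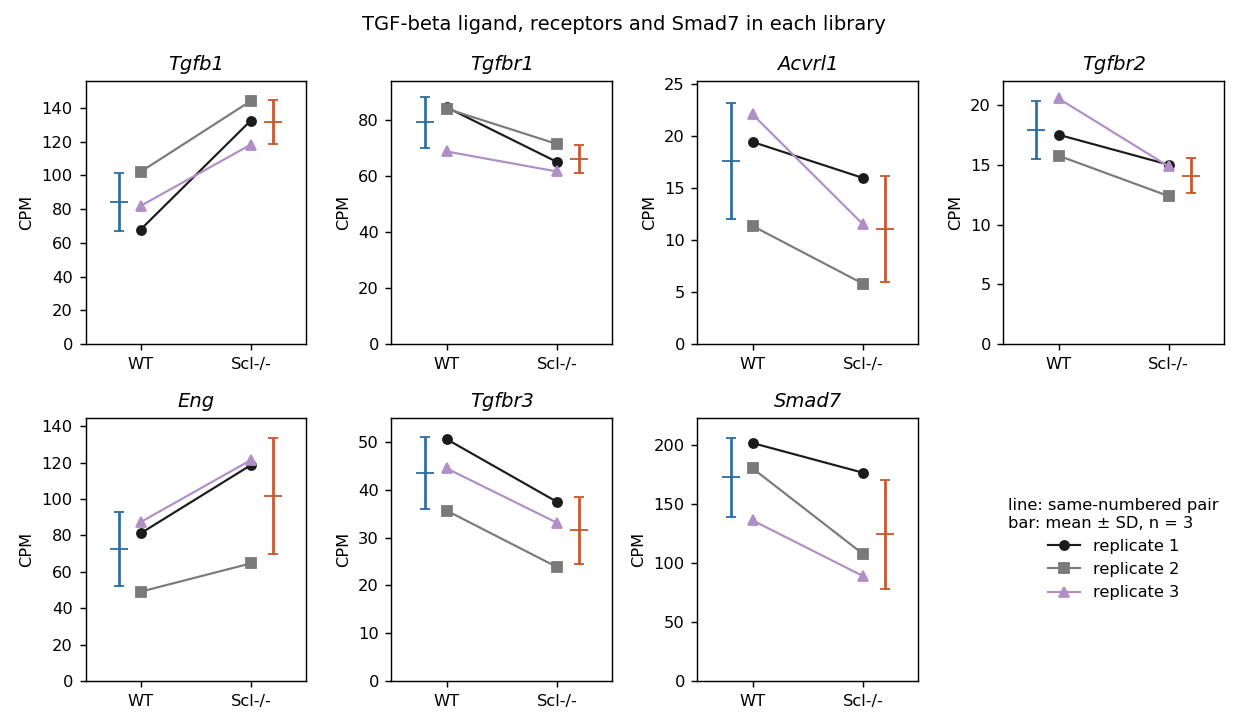
CPM (y axes, from 0) of the 7 genes in WT and Scl-/- libraries, with lines joining same-numbered libraries and bars giving mean ± SD (n = 3). All 3 lines rise for Tgfb1 and Eng and fall for the other 5 genes, while the groups are fully apart only for Tgfb1 and Tgfbr2.

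The type I receptor of the SMAD2 and SMAD3 branch and the type II receptor were slightly lower in Scl-/- cells, by less than the fold-change threshold. Tgfbr1 (ENSMUSG00000007613; chr4:47366094-47427803, plus strand) had 84.5, 84.0 and 68.7 CPM in WT and 65.0, 71.4 and 61.6 CPM in Scl-/- cells, and WT replicate 3 lay within the Scl-/- range. Its log2 fold change was -0.25 (SE 0.12, limma adjusted p = 0.325; with the block, SE 0.070 and adjusted p = 0.0330). Tgfbr2 (ENSMUSG00000032440; chr9:115993415-116084383, minus strand) had 17.5, 15.8 and 20.5 CPM in WT and 15.0, 12.4 and 14.9 CPM in Scl-/- cells. The groups did not overlap, which held for 10.7% of all tested genes in this direction. The log2 fold change of Tgfbr2 was -0.34 (SE 0.15, limma adjusted p = 0.310; with the block, SE 0.098 and adjusted p = 0.0419). The block's 95% intervals, -0.42 to -0.09 for Tgfbr1 and -0.56 to -0.11 for Tgfbr2, exclude 0, and only that of Tgfbr2 reaches past the threshold.

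ALK1 transcripts were lower in each Scl-/- library than in the WT library of the same number. Acvrl1 (ENSMUSG00000000530; chr15:100958953-100975767, plus strand) had 19.4, 11.4 and 22.1 CPM in the WT libraries and 16.0, 5.83 and 11.5 CPM in the Scl-/- libraries. Replicate 2 was the lowest library of both genotypes, and WT replicate 2 lay below Scl-/- replicates 1 and 3, so the groups overlapped. The means were 17.6 ± 5.59 and 11.1 ± 5.09 CPM (SD, n = 3), and the log2 fold change was -0.70 (SE 0.38, limma adjusted p = 0.417). With the block the SE was 0.14 and the gene was called (adjusted p = 0.0114). Pairs 2 and 3 each differed by -0.91 and pair 1 by -0.27 on the log2 scale. The call was lost without the pair of replicate 2 (log2 fold change -0.59, adjusted p = 0.0949) or of replicate 3 (-0.59, adjusted p = 0.0845), and held without that of replicate 1 (-0.91, adjusted p = 0.000355). The counting error was small beside the spread between libraries: the lowest, Scl-/- replicate 2, held 241 reads on the gene, with a Poisson 95% interval of 5.11 to 6.61 CPM for counting error only. Acvrl1 overlaps an antisense gene, Gm16031, in 127 exonic bases, and whether reads were counted by strand is not given in the sources used here.

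Endoglin transcripts went the other way, above WT in each of the 3 pairs. Eng (ENSMUSG00000026814; chr2:32502115-32538189, plus strand) had 81.1, 49.0 and 87.3 CPM in the WT libraries and 119, 64.6 and 121 CPM in the Scl-/- libraries. Replicate 2 was again the lowest library of both genotypes, and its Scl-/- library lay below 2 of the 3 WT libraries. The means were 72.5 ± 20.5 and 102 ± 32.0 CPM (SD, n = 3). The log2 fold change was 0.47 (SE 0.30, limma adjusted p = 0.498), and the pairs lay close together, at 0.55, 0.39 and 0.47. With the block the SE was 0.064 and the adjusted p 0.00207, but the fold change stayed just under the 0.48 required, so that Eng was not called. It was past both thresholds without the pair of replicate 2 (0.51, adjusted p = 0.0172) and not without either of the other pairs.

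The Eng locus overlaps its neighbours at both ends. The last 211 bases of Ak1, an adenylate kinase gene on the same strand, cover the start of Eng, and 124 of these bases are exonic in both. Ak1 had 25.1, 26.0 and 25.9 CPM in WT and 54.1, 38.2 and 44.2 CPM in Scl-/- cells, and it was called (log2 fold change 0.80, limma adjusted p = 0.0350, and 0.00199 with the block), although without the block the call survived in only 1 of the 6 fits that left out 1 library, that without Scl-/- replicate 2. Fpgs, on the opposite strand, shares 61 exonic bases with the 3′ end of Eng and did not stand out (log2 fold change -0.08). The part of reads from Ak1 in the Eng values was not tested.

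The other co-receptor of the family was lower in Scl-/- cells. Tgfbr3 (ENSMUSG00000029287; chr5:107535589-107718648, minus strand) had 50.7, 35.7 and 44.6 CPM in WT and 37.5, 23.9 and 33.2 CPM in Scl-/- cells. Only Scl-/- replicate 1 reached into the WT range, and each pair was lower, by 0.43, 0.57 and 0.42 on the log2 scale. The log2 fold change was -0.47 (SE 0.20, limma adjusted p = 0.276; with the block, SE 0.076 and adjusted p = 0.00435), again just inside the fold-change threshold. With the block it was past both thresholds without the pair of replicate 1 (-0.50, adjusted p = 0.00293) or of replicate 3 (-0.50, adjusted p = 0.0256). A pseudogene on the opposite strand, Gm8145, lies within the gene and shares 0 exonic bases with it.

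The feedback gene Smad7 was lower in each Scl-/- library of a pair. Smad7 (ENSMUSG00000025880; chr18:75527183-75555589, plus strand) had 202, 181 and 136 CPM in the WT libraries and 177, 108 and 89.1 CPM in the Scl-/- libraries. Replicate 1 was the highest and replicate 3 the lowest library of both genotypes, and Scl-/- replicate 1 lay within the WT range. The log2 fold change was -0.51 (SE 0.26, limma adjusted p = 0.370), and with the block Smad7 was called (SE 0.10, adjusted p = 0.00924). That call was lost without the pair of replicate 2 (-0.40, adjusted p = 0.0811) or of replicate 3 (-0.47, adjusted p = 0.0705), and held without that of replicate 1 (-0.67, adjusted p = 8.8e-05).

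Counted in pairs, 2 of the 7 genes (Tgfb1 and Eng) were higher in the Scl-/- library of all 3 pairs and 5 were lower in all 3. Of all tested genes, 29.8% were higher and 26.4% lower in all 3 pairs. When the fold-change threshold was dropped from the fit with the block, all 7 genes had an adjusted p under 0.05, beside 24.2% of tested genes, 12.0% higher and 12.2% lower. The fold changes ran from 1.19 (Tgfbr1, higher in WT) to 1.62 (Acvrl1, higher in WT).

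**Figure D2:**
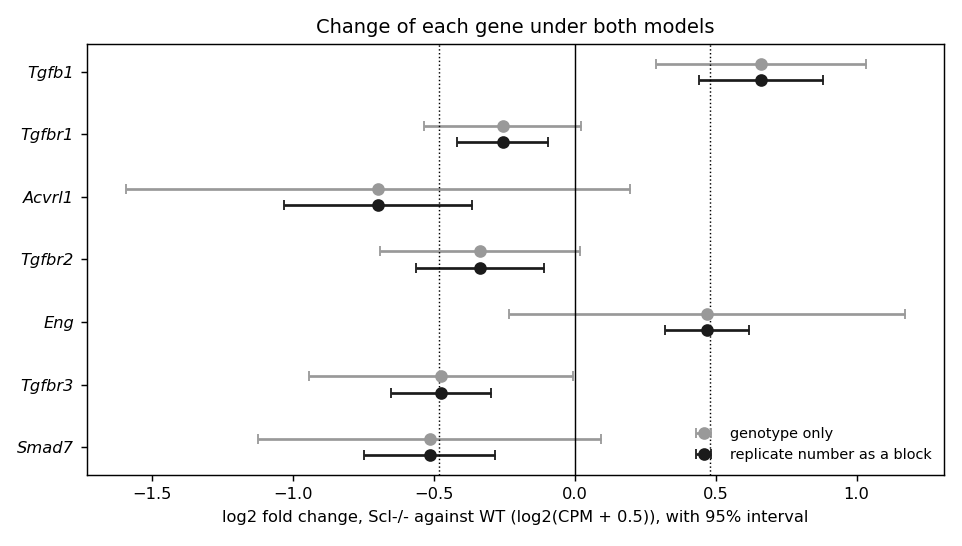
Log2 fold change (Scl-/- against WT, x axis) of the 7 genes with 95% intervals, from limma with genotype only (grey) and with the replicate number as a block (black), and dotted lines at 0.48 in either direction. With the block every interval excludes 0, and the points of Eng and Tgfbr3 lie just inside the lines.

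Levels can be set beside each other only per length, so CPM was divided by the kilobases of exon in the GENCODE annotation. In WT cells the order was Smad7 at 38.3 ± 7.41, Tgfb1 at 32.9 ± 6.73, Eng at 18.7 ± 5.31, Tgfbr1 at 12.1 ± 1.37, Tgfbr3 at 6.67 ± 1.15, Acvrl1 at 4.13 ± 1.31 and Tgfbr2 at 2.22 ± 0.30 CPM per kb (SD, n = 3). The ranges of Smad7 and Tgfb1 overlapped, as did those of Eng and Tgfbr1, and the other neighbours in this order were apart. In Scl-/- cells Tgfb1 was first at 51.5 ± 5.07, followed by Smad7 at 27.6 ± 10.2, Eng at 26.2 ± 8.27, Tgfbr1 at 10.1 ± 0.76, Tgfbr3 at 4.82 ± 1.07, Acvrl1 at 2.61 ± 1.19 and Tgfbr2 at 1.74 ± 0.18 CPM per kb. There, Smad7 and Eng overlapped, as did Tgfbr3 and Acvrl1, and Acvrl1 and Tgfbr2. In every library Eng was above Tgfbr3 and Tgfbr1 was above Acvrl1 on this scale.

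Ratios within a library set the receptors against each other and remove spread only as far as both genes of a ratio share it. Eng over Acvrl1, the co-receptor and the type I receptor that act together in endothelium, was 4.60, 4.76 and 4.35 in WT and 8.18, 12.2 and 11.6 in Scl-/- cells (ratios of CPM per kb). The WT ratios lay within a narrow range although Eng itself varied from 12.7 to 22.6 CPM per kb in these libraries, and each Scl-/- ratio was above them. Eng over Tgfbr3 was 2.71, 2.32 and 3.31 in WT and 5.34, 4.57 and 6.19 in Scl-/- cells, again with no overlap. Acvrl1 over Tgfbr1 was 0.352, 0.207 and 0.492 in WT and 0.377, 0.125 and 0.287 in Scl-/- cells, so that these groups overlapped. Tgfbr2 over Tgfbr1 also overlapped, at 0.152 to 0.242 in WT and 0.140 to 0.195 in Scl-/- cells. Eng was higher and Acvrl1 and Tgfbr3 were lower in Scl-/- cells in all 3 pairs, so both Eng ratios rise within each pair by construction. They restate these differences. The pairs of genes for these ratios were chosen with the members' values known, so the ratios are given without a test.

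**Figure D3:**
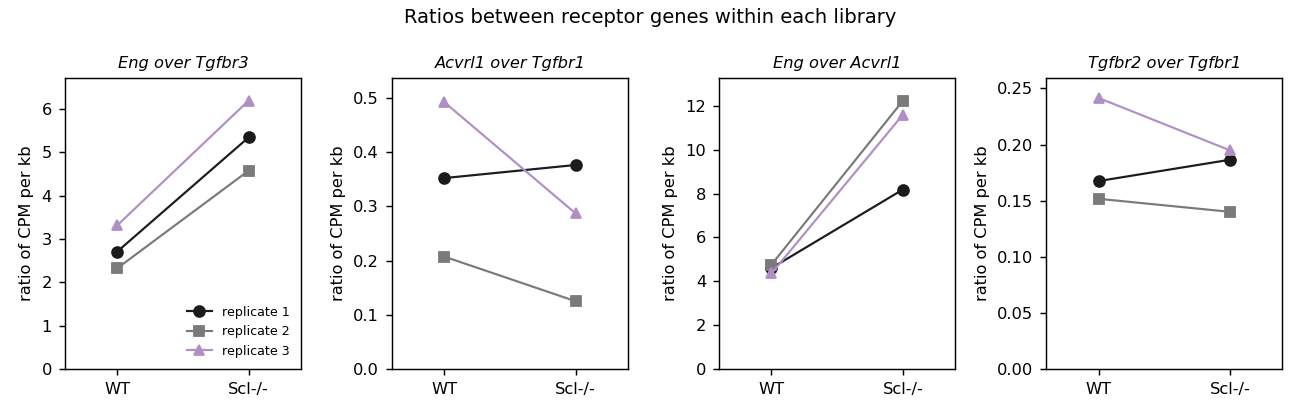
Ratios of CPM per kb of exon (y axes, from 0) between 2 receptor genes in each WT and Scl-/- library, with lines joining same-numbered libraries. Eng over Tgfbr3 and Eng over Acvrl1 are higher in all Scl-/- libraries than in any WT library, and both ratios to Tgfbr1 overlap between the groups.

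Endothelial markers moved with genotype, and their values stand beside those of endoglin and ALK1, which endothelium also makes. All 10 markers measured, of 11 listed, were lower in Scl-/- cells (median log2 fold change -1.84). With genotype only, limma called 3 of them: Tie1 (log2 fold change -3.64, adjusted p = 0.0206), which encodes an endothelial receptor tyrosine kinase, Cdh5 (-3.13, adjusted p = 0.0355), which encodes VE-cadherin, and Erg (-3.11, adjusted p = 0.0105), which encodes an endothelial transcription factor. With 1 library left out and genotype only, Tie1 was called in 4 of 6 fits, Cdh5 in 2 and Erg in 5. Without WT replicate 1 none of the 3 was called (adjusted p = 0.114, 0.171 and 0.0730). With the block 9 of the 10 markers were called. None of the 10 was at 0 in any library. Relative to the mean of the 10 markers on the log2(CPM + 0.5) scale, Eng stood at 1.13, 1.15 and 0.84 in WT and at 3.51, 3.73 and 3.28 in Scl-/- cells. Acvrl1 stood at -0.91, -0.92 and -1.11 in WT and at 0.66, 0.37 and -0.06 in Scl-/- cells. On this scale both genes stood higher in each Scl-/- library than in any WT library. All 10 markers were lower in Scl-/- cells, so a gene that fell less than they did stands higher here by construction. The CPM of Acvrl1 were themselves lower in all 3 pairs. The part of endothelial cells in the Eng and Acvrl1 values was not tested.

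**Figure D4:**
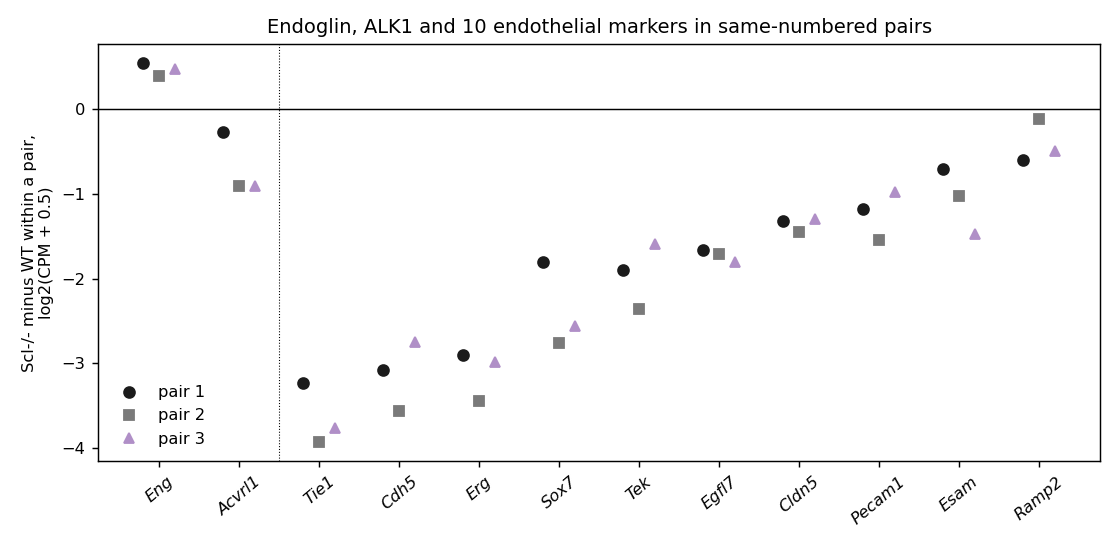
Difference between the Scl-/- and WT library of each same-numbered pair (y axis, log2(CPM + 0.5)) for Eng, Acvrl1 and 10 endothelial markers. Eng lies above 0 in all 3 pairs, Acvrl1 between 0 and -1, and every marker below 0 in all 3 pairs, with Tie1 furthest from 0 and Ramp2 nearest.

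Markers of other cells that a FLK1+ sort could hold also differed. All 8 haematopoietic markers measured were lower (median log2 fold change -2.68), 7 of them called with genotype only. Of 8 cardiac markers 5 were called higher with the block, as were 3 of 5 paraxial and 2 of 4 pluripotent markers. The same held for 3 of 4 smooth muscle and mural and 3 of 4 early mesoderm markers. Of the early mesoderm markers, Mixl1 (1.04, limma adjusted p = 0.0378) and Etv2 (0.78, adjusted p = 0.0175) were called with genotype only as well. Over all tested genes 6.04% were called higher with the block. Not all of these markers were higher. Log2 fold changes were below 0 for 3 cardiac, 2 paraxial, 2 pluripotent and 1 early mesoderm marker, with 0 called lower. The summed smooth muscle and mural level was 46.8 to 61.7 CPM in WT and 77.9 to 110 CPM in Scl-/- cells. Of 5 endoderm markers only Sox17 was measured, a gene that endothelial cells express as well, and it was lower (log2 fold change -2.10, called with the block). The part of these cells in the values of the 7 genes was not tested.

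Among all genes averaging 5 CPM or more, those whose profile over the 6 libraries was most like that of Eng were Hlx, Adcy4, Gm26920, Exoc3l2 and Fbxo46, with root-mean-square differences of 0.134 to 0.154 on the log2 scale, out of 11715 candidates. None of the 5 was called in the limma fit with genotype only (adjusted p = 0.406 to 0.849), and with the block only Exoc3l2 was (log2 fold change 0.55, adjusted p = 0.0427). The genes most like Acvrl1 were Tmem176b, Kit, Coro2b, Sertad4 and Tmem176a, with differences of 0.0911 to 0.119. All 5 were called lower with the block (limma adjusted p = 0.000787 to 0.0185) and none without it (0.275 to 0.506). Kit, the receptor of stem cell factor, had 57.0, 27.5 and 57.9 CPM in WT and 37.0, 15.9 and 31.0 CPM in Scl-/- cells, the same dip in replicate 2 as Acvrl1. These genes were picked for their likeness in the same 6 libraries, so calls that match those of Eng or Acvrl1 follow from the choice. They are likenesses over 6 libraries and no more.

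The rest of the pathway was read from lists of ligands, receptors, SMADs, feedback genes and target genes, with the 7 genes left out. Of 62 such genes tested, 2 were called with genotype only, both higher (3.23%, beside 2.36% of all tested genes), and 13 with the block, 8 higher and 5 lower (21.0%, beside 12.6%). Their median log2 fold change was 0.003, with 31 above and 31 below 0, beside a median of 0.009 over all tested genes.

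None of the 9 other genes for ligands, latency proteins and their activators was called by limma with either model (at an unadjusted p under 0.05, 0 with genotype only and 1 with the block). Tgfb2, the other TGF-beta ligand gene measured, had 151, 114 and 114 CPM in WT and 173, 87.7 and 109 CPM in Scl-/- cells (log2 fold change -0.09, limma adjusted p = 0.932). It lies on chromosome 1, where the median log2 fold change was -0.29, against -0.01 to 0.01 for the chromosomes of the 7 genes. Tgfb3 was not analysed here, nor were the ALK1 ligand genes Gdf2 and Bmp10. None of the 4 other type I receptor genes was called either (at an unadjusted p under 0.05, 1 and 1). Of the 4 other type II receptor genes, Acvr2a, for an activin receptor, was called higher with the block (0.52, adjusted p = 0.00351), and of 5 other co-receptor genes Tdgf1 (1.42, adjusted p = 0.000575) was called higher and Cd109 (-0.54, adjusted p = 0.0358) lower. Tdgf1 encodes the Nodal co-receptor Cripto and had 75.0, 322 and 120 CPM in WT and 196, 632 and 447 CPM in Scl-/- cells, although a pseudogene copy, Tdgf1-ps2, is annotated and how reads shared with it were counted is not given. Its call held whichever pair was left out, whereas that of Cd109, an inhibitory TGF-beta co-receptor, held in 1 of these 3 fits, that without the pair of replicate 1, and that of Acvr2a was lost without the pair of replicate 3 (0.44).

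**Figure D5:**
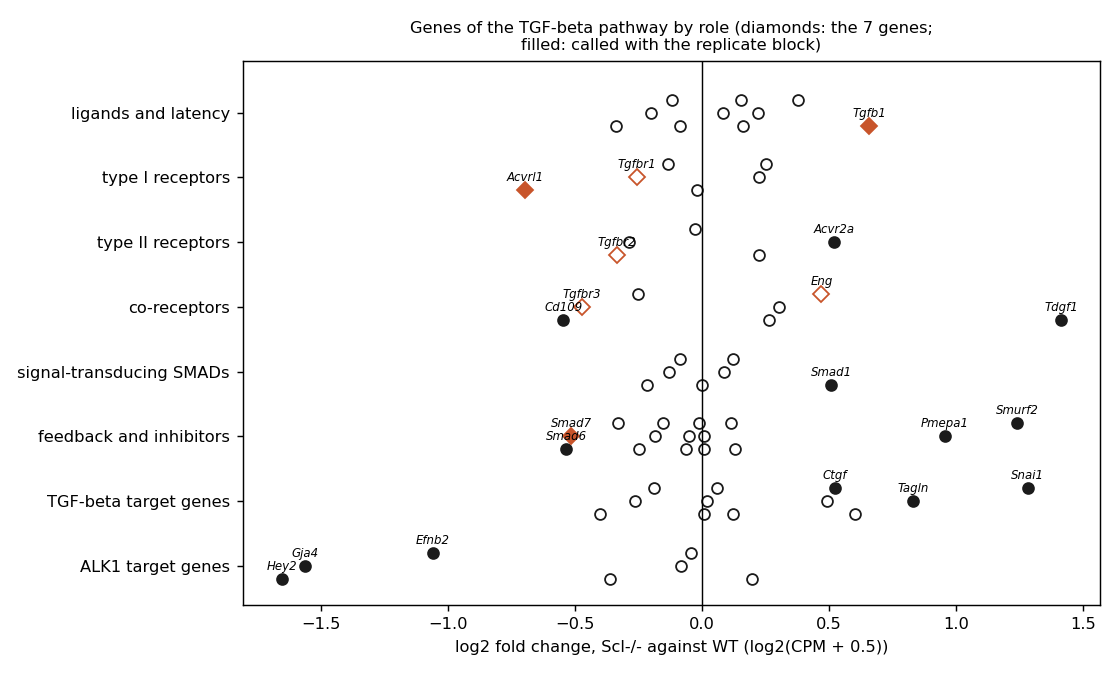
Log2 fold change (Scl-/- against WT, x axis) of each measured gene of the TGF-beta pathway by role (rows, with a small vertical offset for legibility), diamonds for the 7 genes and filled symbols for genes called by limma with the replicate block. Most genes lie near 0, with called genes on both sides, and all 3 filled genes of the ALK1 target row lie on the left.

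SMADs and feedback genes held the 2 calls made with genotype only. Of the 7 signal-transducing genes only Smad1, which acts downstream of ALK1 and of BMP receptors, was called with the block (0.51, adjusted p = 0.00205; not called without the pair of replicate 3, at 0.43). Smurf2 and Pmepa1 encode proteins that restrain TGF-beta signalling, the first a ubiquitin ligase that SMAD7 brings to the receptors, the second a membrane protein that holds SMAD2 and SMAD3. Smurf2 had 54.2, 57.7 and 45.0 CPM in WT and 108, 140 and 126 CPM in Scl-/- cells (log2 fold change 1.24, limma adjusted p = 0.00819). It lies on chromosome 11, whose genes had a median of 0.31, and with that median removed it was still called (0.94, adjusted p = 0.0151). Pmepa1 had 12.7, 15.7 and 12.4 CPM in WT and 24.5, 26.5 and 29.5 CPM in Scl-/- cells (0.96, adjusted p = 0.0198). In both genes every Scl-/- library was above every WT library. Without WT replicate 1 neither was called (adjusted p = 0.0525 and 0.129), and Pmepa1 was not called without WT replicate 3 (0.0674) or without Scl-/- replicates 2 (0.0828) or 3 (0.0728) either. Smad6, which like Smad7 encodes an inhibitory SMAD, was called lower with the block (-0.53, adjusted p = 0.0266) but not without the pair of replicate 2 (-0.36) or 3 (-0.47). The remaining 11 of the 14 feedback genes passed neither test.

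Target genes are given by branch, and no test of the branches against each other was made. Over all tested genes, 6.04% were called higher and 6.60% lower with the block. Of 12 genes known to respond to TGF-beta through SMAD2 and SMAD3, 3 were called higher and 0 lower with the block: Snai1 (1.28, adjusted p = 0.000146), a repressor of epithelial genes that is also a mesoderm gene, Tagln (0.83, adjusted p = 0.0247), a smooth muscle cytoskeletal gene that is also in the mural marker list, and Ctgf (0.52, adjusted p = 0.0251), a matricellular protein gene. The calls of Tagln and Ctgf held in 1 of the 3 fits that left out a pair, Tagln without the pair of replicate 2 and Ctgf without that of replicate 1. The median of the 12 genes was 0.09, with 9 above and 3 below 0, beside a median of 0.009 over all tested genes. Of 7 genes known to respond to ALK1, 3 were called lower with the block and 0 higher. Their median was -0.36, with 1 above and 6 below 0. These 3 were Hey2 (-1.65, adjusted p = 0.000426), a Notch effector, Gja4 (-1.56, adjusted p = 0.000305), a connexin gene of arterial endothelium, and Efnb2 (-1.06, adjusted p = 0.000390), an ephrin gene of arteries, and their calls held whichever pair was left out. Hey2 had 15.8, 6.87 and 17.1 CPM in WT and 6.23, 1.81 and 3.83 CPM in Scl-/- cells. By contrast Id1 and Id3, the genes most often read as the immediate output of SMAD1 and SMAD5, had log2 fold changes of -0.04 and -0.08 (limma adjusted p with the block = 0.715 and 0.625). Id1 had 104, 74.0 and 127 CPM in WT and 112, 71.0 and 112 CPM in Scl-/- cells. Endothelial cells also express Hey2, Gja4 and Efnb2, and the part of the lower endothelial marker levels in these values was not tested.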

How the data were processed

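RNA-seq was available from 3 WT and 3 Scl-/- libraries. Per the labels and the study's methods, the authors aligned reads to mm9 with TopHat2 2.0.8b, removed duplicates, filtered by mapping quality (SAMtools 0.1.19) and applied the TMM scaling of edgeR. The table the authors deposited gives 14005 genes in CPM. The counting tool, its strand setting and its annotation are not given in the sources used here. All CPM values were whole multiples of 1 step per library (within 0.05 read), which gave the reads. No count model was run, because the values are labelled CPM and genes at low values, from which such steps are checked, are scarce in the table. A floor of 3 reads was 0.0615 to 0.0784 CPM.

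A gene was kept when 3 or more libraries reached 0.5 CPM (13991; 14 removed) and fitted with limma 3.58.1 (R 4.3.3; lmFit, eBayes with an intensity trend) on log2(CPM + 0.5), which understates changes of low genes. Both models were also run on simulated data. Without a deviation shared by same-numbered libraries, the changed genes were called with genotype only. With such a deviation, genotype only missed them, and the block called nearly all. Replicate numbers were used to pair the libraries: per the study's design they mark separate differentiations. The study's methods do not state whether same-numbered libraries of both genotypes were grown together. Deviations from the group means correlated at 0.59, 0.76 and 0.75 for equal numbers and at -0.62 to -0.10 for unequal ones. A gene's deviations sum to 0 within a genotype, so positive values for equal numbers make those for unequal numbers tend to be negative. With genotype only, p-values rest on the spread among the differentiations of each genotype. With the block, they rest on how much the differences within pairs vary.

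Alternatives were other pseudocounts, filters, thresholds and scaling, no intensity trend, the block, and libraries or pairs left out. Removing chromosome medians, alone or with the block, was added after seeing the data. Gene positions come from GENCODE (mm9) and promoter windows from RefSeq. Other steps used Python 3.11.15, pandas 2.3.3, NumPy 2.4.6, SciPy 1.17.1 and Matplotlib 3.10.9.

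The 7 genes, the pathway lists and the marker lists were chosen with earlier results of these data known. Genes named are the 7, Tal1, Kdr, Tgfb2, Tgfb3, Smad6, listed genes called with genotype only, up to 3 per pathway list called with the block alone, markers called with genotype only (7 haematopoietic ones by count), and the 5 profiles most like Eng and Acvrl1. Neighbouring or overlapping genes, Id1, Id2, Id3, Hey1, Tmem100, Gja5, Ramp2, Sox17 and the ALK1 ligand genes were chosen after the values were seen.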

Additional observations from a re-analysis of the deposited data

How the results depend on the processing

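The 7 log2 fold changes kept their direction under all 21 alternatives. Of the 147 values, 125 stayed on the same side of the thresholds and 22 moved past them. The number of the 7 genes called rose from 0 to 3 with the replicate block, to 4, 2 and 2 with the block and without both libraries of replicate 1, 2 and 3, to 7 when the block was used without a fold-change threshold, and to 3 with the block and chromosome medians removed, and ranged from 0 to 1 with 1 library left out. Over all tested genes the count rose from 330 to 1768, to 2062, 1122 and 1210, to 3385 and to 1495 in the same order, and ranged from 44 (without WT replicate 1) to 384 with 1 library left out. For the other pathway genes it rose from 2 to 13, to 13, 12 and 7, to 16 and to 13, fell to 1 with a fold-change threshold of 1, and ranged from 0 to 3.

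Without the block, Tgfb1 passed the thresholds at 0.81 when WT replicate 2 was left out. The other values past the thresholds came with the block. For Tgfb1 these were 0.66, then 0.51, 0.74 and 0.73 without the pairs of replicates 1, 2 and 3, 0.66 with no fold-change threshold and 0.65 with chromosome medians removed. For Acvrl1 they were -0.70, -0.91 without the pair of replicate 1, and -0.70 with no fold-change threshold and with chromosome medians removed. For Smad7 they were -0.51, -0.67 without the pair of replicate 1, and -0.51 in both other settings. Eng passed at 0.51 without the pair of replicate 2, and Tgfbr3 at -0.50 without those of replicates 1 or 3. With no fold-change threshold Eng (0.47), Tgfbr3 (-0.47), Tgfbr2 (-0.34) and Tgfbr1 (-0.25) passed too. With 1 library left out and no block, log2 fold changes ranged from 0.52 to 0.81 for Tgfb1, 0.21 to 0.77 for Eng, -1.003 to -0.31 for Acvrl1, -0.61 to -0.29 for Tgfbr3, -0.42 to -0.24 for Tgfbr2, -0.35 to -0.20 for Tgfbr1 and -0.80 to -0.30 for Smad7. The cause of these moves was not tested beyond the block's smaller errors.

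Limits are 3 libraries a group, 1 ES cell line per genotype, sorted cells in bulk, and an unstated counting strand beside genes that share exonic bases with Eng and Acvrl1. Reads on the 7 genes were at least 241 per library, and the errors were not split into counting error and spread between differentiations.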
